A study of Mus musculus with 6 samples.

Results

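The proteasome genes of primary mouse hepatocytes were compared between hypoxia and normoxia. They were taken as the array rows with a single gene symbol made of Psm, a letter from a to g and a number, with the row of highest mean kept for each gene. This gave 43 genes of 13725 named genes, which stood on 15443 rows in all, and each of the 43 had 1 row. *Psma4*, *Psma5*, *Psma8*, *Psmb11*, *Psmg3*, *Psmg4* and *Psme2b* had no row with their symbol alone and were not analysed here. *Psmc3ip* shares the letters but encodes a meiotic recombination factor and no proteasome subunit, so that 42 of the 43 are proteasome genes proper.

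Hepatocytes were perfused from wildtype C57BL/6 mice aged 8 to 12 weeks and plated on collagen, and the labels name no allele or agent besides oxygen. The labels give cells of each of 3 mice, kept at 1% O2 (hypoxia) and at 19.5% O2 (normoxia) for 72 h. The study's methods give a shorter exposure for the expression data, a lower normoxic oxygen level, the substrain C57BL/6N and a narrower range of ages. Each mouse gave 1 array per condition, 6 in all. Total RNA was hybridised to the Affymetrix Mouse Gene 2.0 ST array, and values are given on the log2 scale after RMA, which corrects the background, normalises the arrays to one distribution and summarises the probes of a transcript. A difference of 1 on this scale is a fold of 2, and probes differ in their response, so that the order of levels between genes has no meaning here. Sums and differences over several genes were therefore compared only between conditions.

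The proteasome is the barrel-shaped protease that degrades proteins marked with ubiquitin. Its core particle is built from alpha rings, which form the gate, and beta rings, which carry the cutting sites, and a cap of ATPases and non-ATPase subunits recognises, unfolds and feeds in the substrate. In cells exposed to interferon and in immune cells, the catalytic beta subunits are replaced by PSMB8, PSMB9 and PSMB10, which form the immunoproteasome and favour peptides for antigen presentation. With the VHL ubiquitin ligase, the proteasome removes the alpha subunits of the hypoxia inducible factors as long as oxygen is present, and in the liver it also takes part in the turnover of misfolded secretory proteins and of metabolic enzymes.

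Over all rows, 15.5% were higher and 23.9% lower in hypoxia at an adjusted p under 0.05 in limma, or 39.5% in either direction, with a median log2 fold change of -0.05. The median row of an array was 7.42 to 7.49, and r across rows was 0.903 to 0.938 among hypoxic and 0.958 to 0.963 among normoxic arrays. The hypoxia target *Ndrg1* had 10.71, 10.63 and 10.41 in the hypoxic cultures of mouse 1, 2 and 3, against 8.40, 8.98 and 8.66 in the normoxic cultures, and was 1.91 higher. The summed level of 7 hepatocyte markers was 15.07 to 15.11 in hypoxia and 14.96 to 15.07 in normoxia, with the albumin gene *Alb* near the top of the array. Without *Alb*, the sum was 14.49 to 14.55 in hypoxia and 14.43 to 14.52 in normoxia, with overlap. Markers of other liver cells were also present. The sum of 7 macrophage markers was 11.38 to 11.41 in hypoxia and 10.75 to 10.82 in normoxia, a difference set by *Cd68* alone, since the other 6 summed to 9.82 to 9.97 in hypoxia and 9.82 to 10.23 in normoxia. That of 5 endothelial markers was 10.60 to 10.76 in hypoxia and 9.75 to 10.07 in normoxia, and without its brightest gene, *Cdh5*, 10.05 to 10.22 in hypoxia and 9.23 to 9.61 in normoxia. Of the 7 hepatocyte markers, 2 were lower, with log2 fold changes of -1.03 for *Hnf4a* and -0.94 for *Fgb*. Another 2 were higher, with 0.72 for *Apoa1* and 0.52 for *Serpina1c*. These 2 higher calls were lost in 2 and 4 of the 9 fits that left out an array or a mouse. Of the other lists, 2 of 7 macrophage markers were higher and 1 lower, and 4 of 5 endothelial markers were higher. A lower value in such cultures can mean fewer cells of a type or less RNA per cell, and these cannot be told apart. The part of other cells in the values below was not tested.

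The promoters of 4 genes are shown first, because 3 of them had large changes and the other 1, *Psmb9*, is the partner of *Psmb8* that did not pass the test. Each is the 250 bases before the transcription start in RefSeq (GRCm38.p6), written 5′ to 3′ on the strand of the gene. Capitals mark matches on either strand to 1 of 4 short motifs: TGANNNNGC, the core of the antioxidant response element to which the NRF1 factor binds, ACGTG and GCGTG, both forms of the hypoxia response element core, and GAAA repeated after a gap of 2 bases, the core of the interferon-stimulated response element.
Psmd4, chr3:95042615-95042864, minus strand: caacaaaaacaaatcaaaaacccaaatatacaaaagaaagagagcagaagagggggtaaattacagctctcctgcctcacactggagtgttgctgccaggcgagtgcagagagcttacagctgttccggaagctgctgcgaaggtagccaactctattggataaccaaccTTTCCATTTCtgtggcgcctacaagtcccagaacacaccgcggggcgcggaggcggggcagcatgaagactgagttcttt
Psmd6, chr14:14120946-14121195, minus strand: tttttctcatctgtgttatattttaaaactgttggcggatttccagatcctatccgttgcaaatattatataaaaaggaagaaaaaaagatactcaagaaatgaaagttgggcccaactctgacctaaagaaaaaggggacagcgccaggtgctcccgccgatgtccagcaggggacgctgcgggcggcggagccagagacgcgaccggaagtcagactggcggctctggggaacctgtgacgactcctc
Psmb8, chr17:34197945-34198194, plus strand: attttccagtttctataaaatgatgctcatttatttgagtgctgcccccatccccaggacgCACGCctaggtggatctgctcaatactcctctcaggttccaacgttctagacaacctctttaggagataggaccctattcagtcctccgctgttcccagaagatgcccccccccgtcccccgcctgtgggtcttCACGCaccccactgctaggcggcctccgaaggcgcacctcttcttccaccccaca
Psmb9, chr17:34187331-34187580, minus strand: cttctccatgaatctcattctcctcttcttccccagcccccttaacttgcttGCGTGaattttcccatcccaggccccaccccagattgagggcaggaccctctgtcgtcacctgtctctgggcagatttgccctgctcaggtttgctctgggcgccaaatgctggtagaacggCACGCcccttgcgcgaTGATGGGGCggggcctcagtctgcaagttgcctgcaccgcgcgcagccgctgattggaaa

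*Psmd4* held 1 match to the GAAA repeat on the reverse strand and *Psmd6* held none of the 4 motifs. *Psmb8* held 2 matches to GCGTG on the reverse strand. *Psmb9* held 2 matches to GCGTG, 1 on each strand, and 1 to TGANNNNGC. The start of *Psmb9* lies near that of the peptide transporter gene *Tap1* on the opposite strand. Promoter windows were found for 36 of the 43 genes and for 27025 genes in all. TGANNNNGC was found in 14 of the 36 (38.9%) and in 38.7% of all genes, ACGTG in 7 (19.4%) and in 18.5%, GCGTG in 17 (47.2%) and in 30.9%, and the GAAA repeat in 3 (8.33%) and in 3.46%. These shares are a description of the letters only.

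Most proteasome genes differed little between hypoxia and normoxia. Of the 43 genes, 4 were higher and 4 lower in hypoxia, against 15.5% of all rows that were higher and 23.9% that were lower. The 8 genes are 18.6% of the 43, whereas 39.5% of all rows passed in either direction. Because 39 of the 43 rows lay above the median row in brightness, the same shares were taken over the brighter rows alone, where 17.7% were higher and 25.4% lower. Without *Psmc3ip*, 3 of 42 genes were higher and 4 lower. The counts over the 43 genes were 1 higher and 2 lower without mouse 2, and 2 higher and 2 lower without mouse 3. These fits hold fewer arrays, and the share of all rows that passed in them is not given here. The median log2 fold change was 0.028 over the 43 genes and -0.05 over all rows.

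The changes were also small in size. Of the 42 genes, 36 had a log2 fold change within 0.5 of zero. The median absolute log2 fold change was 0.141 over the 43 genes, 0.451 over all rows and 0.435 over the brighter rows. The standard error of these fold changes had a median of 0.146 for the 43 genes, 0.179 for all rows and 0.158 for the brighter rows. Of the 35 genes that did not pass, 34 had a 95% interval that lay within a fold of 2 in both directions, and 29 had one that lay within a fold of 1.5. All 3 hypoxic arrays were above all 3 normoxic arrays for 10 of the 43 genes, against 22.4% of all rows, and below them for 8, against 31.9% of all rows.

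**Figure D1:**
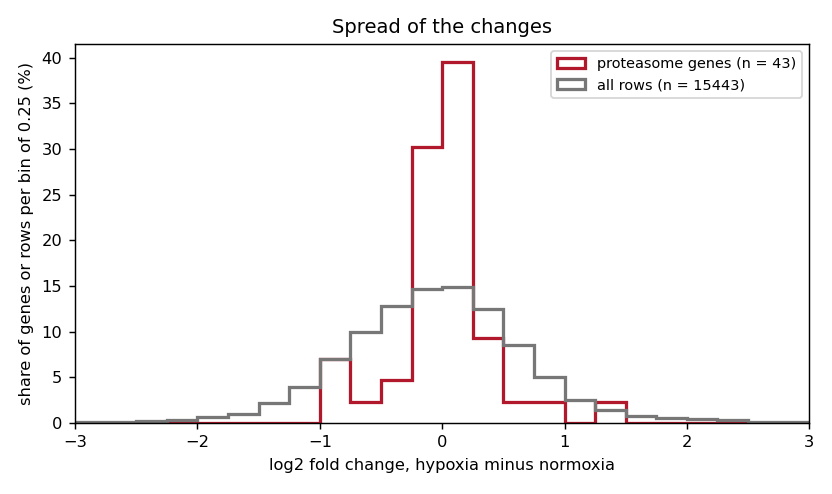
Share of the 43 proteasome genes (red) and of all 15443 rows (grey) in each bin of the log2 fold change, hypoxia minus normoxia (x axis, bins of 0.25), in percent (y axis). The proteasome genes are gathered around zero, with a median absolute log2 fold change of 0.141, against 0.451 over all rows.

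**Figure D2:**
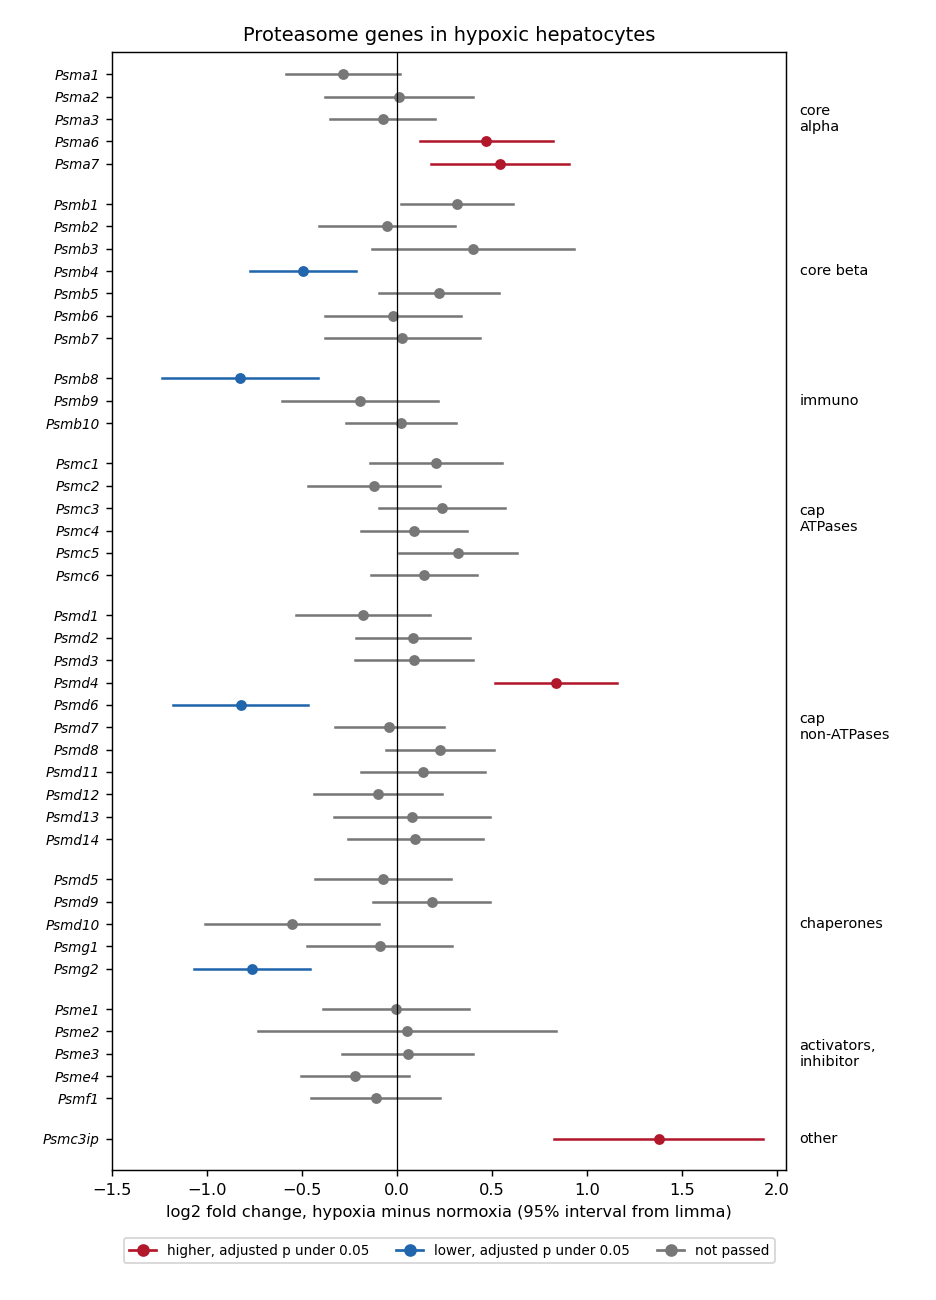
Log2 fold change, hypoxia minus normoxia, of each of the 43 genes (points) with its 95% interval from limma (bars), ordered by role. Red marks the 4 genes that were higher and blue the 4 that were lower at an adjusted p under 0.05, and grey marks the 35 that did not pass.

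In the core particle, 2 alpha genes rose, 1 beta gene fell and 9 of the 12 did not pass, with a median log2 fold change of 0.019. Over all rows, 15.5% were higher and 23.9% lower. *Psma7* and *Psma6* encode subunits of the alpha ring. *Psma7* had log2 values of 9.67, 9.46 and 9.80 in the hypoxic cultures of mouse 1, 2 and 3, against 9.10, 8.93 and 9.27 in the normoxic cultures. All 3 hypoxic arrays lay above all 3 normoxic arrays, and the difference was nearly equal in the 3 mice. The log2 fold change was 0.54 (SE 0.15, n = 3 arrays per condition, limma adjusted p = 0.0291), a fold of 1.46. *Psma6* read 9.21, 8.90 and 9.23 in hypoxia, against 8.75, 8.66 and 8.53 in normoxia. These groups did not overlap either, and the hypoxic culture of mouse 2 was the lowest of its group. Its log2 fold change was 0.47 (SE 0.15, limma adjusted p = 0.0419), and it no longer passed when the mouse was a block in the fit (adjusted p = 0.0763). Fits without an array or a mouse hold fewer arrays. The call of *Psma6* was lost in 8 of these 9 fits (limma adjusted p up to 0.236). That of *Psma7* was lost in 6 of 9 (up to 0.114). The log2 fold change in these fits was 0.35 to 0.58 for *Psma6* and 0.46 to 0.63 for *Psma7*.

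Of the other alpha genes, *Psma1* had 9.57, 9.34 and 9.39 in hypoxia, against 9.75, 9.70 and 9.70 in normoxia. All hypoxic arrays were below all normoxic arrays by a small margin, with a log2 fold change of -0.28 that did not pass (limma adjusted p = 0.117). *Psma3* differed by -0.076 and *Psma2* by 0.0095, with adjusted p-values of 0.636 and 0.969 in limma.

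*Psmb4* encodes a beta subunit without a cutting site and was the only constitutive beta gene of the 7 to pass. It read 8.91, 8.89 and 8.93 in hypoxia, against 9.46, 9.38 and 9.38 in normoxia. The replicates of each condition lay close together and the groups were far apart by comparison. It fell by 0.50 on the log2 scale (SE 0.12, limma adjusted p = 0.0156), which puts the normoxic level at 1.41 times the hypoxic level. The call was lost in 5 of the 9 fits without an array or a mouse (adjusted p up to 0.124).

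*Psmb3* and *Psmb1*, further beta subunits without cutting sites, had the highest positive values among the beta genes without passing. *Psmb3* had 9.09, 9.87 and 9.85 in hypoxia, against 9.27, 9.22 and 9.12 in normoxia. The hypoxic culture of mouse 1 lay below all 3 normoxic arrays, while those of the other mice lay above all of them. The log2 fold change was 0.40 (SE 0.23, limma adjusted p = 0.194) and, without the hypoxic array of mouse 1, 0.66 with an adjusted p of 0.00914. *Psmb1* had 9.84, 9.91 and 9.81 in hypoxia, against 9.46, 9.64 and 9.51 in normoxia, without overlap, and a log2 fold change of 0.32 (limma adjusted p = 0.0815). *Psmb2* differed by -0.053.

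The catalytic beta subunits were read beside the immunoproteasome subunits that replace them. *Psmb8* fell in hypoxia and *Psmb9* and *Psmb10* did not pass. *Psmb8* encodes the inducible counterpart of PSMB5, which has the chymotrypsin-like activity. Its values were 7.23, 7.43 and 6.84 in hypoxia, against 8.01, 8.00 and 7.96 in normoxia. The normoxic arrays were almost equal, and the hypoxic arrays were spread below them, the one of mouse 3 lowest. Means were 7.17 ± 0.30 in hypoxia and 7.99 ± 0.025 in normoxia (SD, n = 3 each). It fell by 0.83 on the log2 scale (SE 0.17, limma adjusted p = 0.00985), so that the normoxic level was 1.77 times the hypoxic level. Without mouse 3, the fall was 0.68 with an adjusted p of 0.0543, and in the other 8 fits of this kind it passed.

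*Psmb9*, the inducible counterpart of PSMB6 with its caspase-like activity, read 6.56, 6.81 and 6.66 in hypoxia, against 6.60, 7.15 and 6.86 in normoxia. The groups overlapped, although each hypoxic culture was below the normoxic culture of its own mouse. The log2 fold change was -0.20 (95% interval -0.60 to 0.21, limma adjusted p = 0.404). *Psmb10*, the counterpart of PSMB7 with its trypsin-like activity, had 7.81, 7.66 and 7.79 in hypoxia, against 7.78, 7.72 and 7.70 in normoxia, and the conditions were not separated. Its log2 fold change was 0.019 (95% interval -0.27 to 0.31, adjusted p = 0.916).

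The constitutive subunits themselves did not pass. *Psmb5* had 8.75, 8.93 and 8.91 in hypoxia, against 8.76, 8.64 and 8.52 in normoxia, with a log2 fold change of 0.22 (limma adjusted p = 0.227). *Psmb6* had 10.35, 10.50 and 10.15 in hypoxia, against 10.37, 10.49 and 10.20 in normoxia, and its values followed the mouse far more than the condition (log2 fold change -0.023). *Psmb7* had 10.37, 10.48 and 10.02 in hypoxia, against 10.47, 10.14 and 10.18 in normoxia, with overlap and a log2 fold change of 0.028.

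The log2 difference of each immunoproteasome subunit to the subunit it replaces was then taken within each array, where the scale of the array cancels. For *Psmb8* minus *Psmb5* it was -1.517, -1.497 and -2.068 in hypoxia, against -0.746, -0.646 and -0.551 in normoxia. The groups were apart in all 3 mice. The change was -1.05, with -0.77, -0.85 and -1.52 in mouse 1, 2 and 3 (exact two-sided permutation test, p = 0.1, the smallest that 3 against 3 arrays can give). The change was -0.17 for *Psmb9* minus *Psmb6* (exact permutation p = 0.3) and -0.0089 for *Psmb10* minus *Psmb7* (exact permutation p = 1). Of the 3 exchange pairs, the one of *Psmb8* had arrays without overlap, as *Psmb8* alone already had. Of all rows, 22.4% had all hypoxic arrays above all normoxic arrays and 31.9% had them below. The differences within an array give the direction of an unequal change and not the ratio of the proteins.

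**Figure D3:**
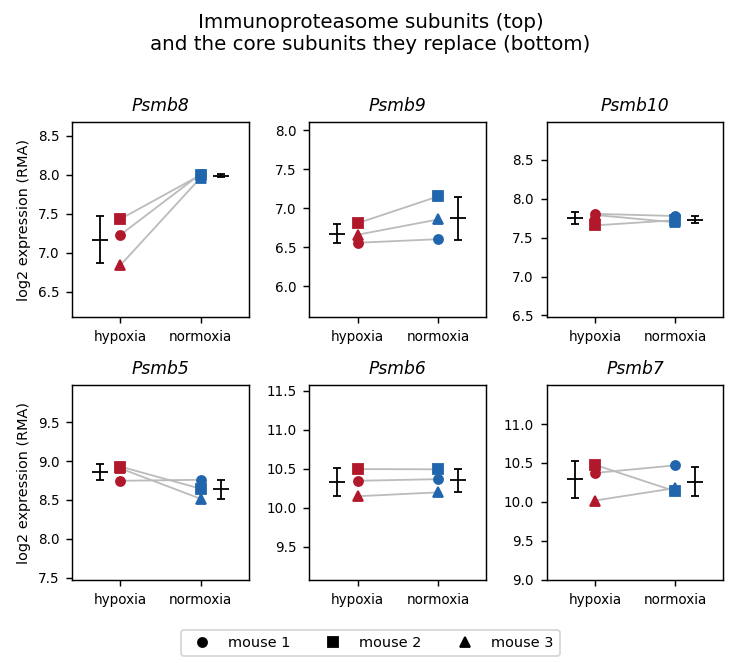
Log2 expression of the immunoproteasome subunits (top) and of the core subunits they replace (bottom) per array, with hypoxia on the left and normoxia on the right; lines join the cultures of a mouse, and bars give the mean and SD of 3 arrays. *Psmb8* lies lower in hypoxia in all 3 mice, whereas the values of the other 5 genes overlap.

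Genes that share the antigen presentation pathway or its interferon control were read from a list of 14, of which 13 had a row. Of these, 1 was higher, 2 were lower and 10 did not pass, with a median log2 fold change of -0.14, whereas 15.5% of all rows were higher and 23.9% lower. With the mouse as a block, 0 were higher and 1 was lower in limma. *Irf1*, an interferon-induced transcription factor of immunoproteasome genes, had 6.46, 6.31 and 6.28 in hypoxia, against 6.98, 7.27 and 7.30 in normoxia. The groups did not overlap, and it fell by 0.83 (SE 0.15, limma adjusted p = 0.00484). Its adjusted p was 0.0714 without mouse 2 and 0.0562 without mouse 3. *Ifit1*, an interferon-induced antiviral gene, fell by 1.34 (SE 0.36, adjusted p = 0.0234), a call that the fit with mice as blocks did not give (adjusted p = 0.0536) and that was lost in 4 of the 9 leave-out fits. *Erap1*, which trims peptides in the endoplasmic reticulum, was 0.37 higher (limma adjusted p = 0.0429, with the block 0.0926), a call lost in all 9 leave-out fits. The interferon-induced *Isg15*, a ubiquitin-like modifier, had a log2 fold change of -0.86 that did not pass (adjusted p = 0.0591). *Tap1*, whose start lies near that of *Psmb9*, had 7.14, 7.40 and 7.24 in hypoxia, against 7.29, 7.56 and 7.88 in normoxia. The groups overlapped, with a log2 fold change of -0.32 (adjusted p = 0.195). The class I light chain *B2m* had -0.26 (adjusted p = 0.126).

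Immunoproteasome subunits are also made by leukocytes and endothelium. The macrophage markers moved in both directions, whereas 4 of 5 endothelial markers were higher. In the macrophage list, *Cd68* was 1.35 and *Marco* 0.57 higher, *Cd14* was lower by 0.88, and the Kupffer cell marker *Clec4f* had -0.17 without passing. The calls of *Marco* and *Cd14* were lost in 7 and 6 of the 9 leave-out fits, and that of *Marco* also with the block (adjusted p = 0.0674). The endothelial *Pecam1* was 1.16, *Cdh5* 0.80, *Lyve1* 0.79 and *Stab2* 0.78 higher. The calls of *Cdh5* and *Lyve1* were lost in 1 and 5 of the 9 leave-out fits. *Kdr* of the same list had -0.40 without passing (limma adjusted p = 0.0765). The sum of 3 lymphocyte markers was 9.92 to 10.50 in hypoxia and 9.69 to 9.79 in normoxia, with *Nkg7* 0.72 higher, a call lost in 6 of 9 leave-out fits. Without *Nkg7* the sum was 8.32 to 8.98 in hypoxia and 8.05 to 8.71 in normoxia, with overlap. The part of these cells in the value of *Psmb8* was not tested. The sum of 5 stellate cell markers was 9.44 to 9.86 in hypoxia and 8.95 to 9.29 in normoxia, with 1 of the 5, *Reln*, 1.70 higher. The other 4 did not pass and ran from -0.31 for *Dcn* to 0.66 for *Col1a1*.

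In the cap, 1 gene rose, 1 fell and 15 of 17 did not pass, beside 15.5% higher and 23.9% lower over all rows. Both genes that passed belong to the non-ATPase subunits. *Psmd4* encodes a receptor that binds the ubiquitin chain of the substrate. It had 9.27, 9.27 and 9.04 in hypoxia, against 8.31, 8.28 and 8.47 in normoxia. The lowest hypoxic array, that of mouse 3, was still above the highest normoxic array, that of the same mouse. Means were 9.19 ± 0.13 in hypoxia and 8.35 ± 0.10 in normoxia (SD, n = 3 each). The log2 fold change was 0.84 (SE 0.14, limma adjusted p = 0.00385), a fold of 1.79, the highest of the 42 proteasome genes proper. Without mouse 2 the adjusted p was 0.0632.

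*Psmd6* encodes a scaffold subunit of the lid, the part of the cap that holds the deubiquitinase. Its log2 values were 8.15, 7.79 and 8.03 in hypoxia, against 8.86, 8.91 and 8.66 in normoxia. Again no hypoxic array reached a normoxic one, here from below, and mouse 2 differed most. Means were 7.99 ± 0.18 in hypoxia and 8.81 ± 0.13 in normoxia (SD, n = 3 each). It fell by 0.82 on the log2 scale (SE 0.15, limma adjusted p = 0.0058), with a normoxic level 1.77 times the hypoxic one, and had an adjusted p of 0.0767 without mouse 2. *Psmd4* and *Psmd6* thus moved in opposite directions by nearly the same amount.

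The other 9 non-ATPase genes lay between -0.18 and 0.23. The scaffold subunit genes *Psmd1* and *Psmd2* had log2 fold changes of -0.18 and 0.084. The deubiquitinase gene *Psmd14* had 9.52, 9.32 and 9.46 in hypoxia, against 9.47, 9.44 and 9.10 in normoxia, with overlap and a log2 fold change of 0.10. *Psmd8*, a lid subunit gene, had 11.95, 11.86 and 11.98 in hypoxia, against 11.69, 11.74 and 11.69 in normoxia, without overlap, and a log2 fold change of 0.23 (limma adjusted p = 0.172). The remaining lid subunit genes *Psmd3*, *Psmd7*, *Psmd11*, *Psmd12* and *Psmd13* had log2 fold changes of 0.089, -0.041, 0.14, -0.10 and 0.077.

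None of the 6 ATPase genes, whose products form the ring that unfolds the substrate, passed in limma, and 1 had an unadjusted p under 0.05. Of the 6, 5 had a positive log2 fold change, with a median of 0.17 and a range from -0.12 for *Psmc2* to 0.32 for *Psmc5*. *Psmc5* read 8.73, 8.53 and 8.52 in hypoxia, against 8.18, 8.29 and 8.35 in normoxia (limma adjusted p = 0.0925). *Psmc3* read 9.118, 9.032 and 8.952 in hypoxia, against 8.822, 8.623 and 8.949 in normoxia (adjusted p = 0.218). In 4 of the 6, *Psmc3*, *Psmc4*, *Psmc5* and *Psmc6*, all hypoxic arrays were above all normoxic arrays, by small margins (22.4% of all rows). *Psmc6* had closely spaced replicates, with 9.49, 9.54 and 9.47 in hypoxia, against 9.35, 9.39 and 9.35 in normoxia. *Psmc1* had a log2 fold change of 0.21 and *Psmc4* of 0.089.

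Assembly chaperones bind subunits while the particle is built and leave afterwards. Of the 5 measured, 1 fell and 4 did not pass, beside 23.9% of all rows that were lower. Their median log2 fold change was -0.092. *Psmg2* encodes a chaperone that starts the alpha ring as a pair with the product of *Psmg1*. It had 7.05, 7.06 and 6.92 in hypoxia, against 7.75, 7.68 and 7.89 in normoxia. The groups were well apart, and it fell by 0.76 on the log2 scale (SE 0.13, limma adjusted p = 0.00441), with a normoxic level 1.70 times the hypoxic level. It passed in all 9 leave-out fits. Its partner *Psmg1* had 7.77, 7.81 and 7.45 in hypoxia, against 7.56, 7.84 and 7.90 in normoxia, with overlap and a log2 fold change of -0.092 (95% interval -0.48 to 0.29).

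*Psmd10*, which encodes the chaperone gankyrin of the ATPase ring, had 8.12, 8.14 and 7.71 in hypoxia, against 8.70, 8.70 and 8.23 in normoxia. In both conditions mouse 3 was lower than the others, so that the spread within a condition was wide while the difference within a mouse was nearly constant. The log2 fold change was -0.55 (SE 0.19), with a limma adjusted p of 0.0581 without the block and 0.0352 with the mouse as a block. With that block, 3 of the 43 genes were higher and 5 lower, against 13.3% and 20.1% of all rows. The other chaperones of the ATPase ring, *Psmd5* and *Psmd9*, had log2 fold changes of -0.072 and 0.18 without passing.

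**Figure D4:**
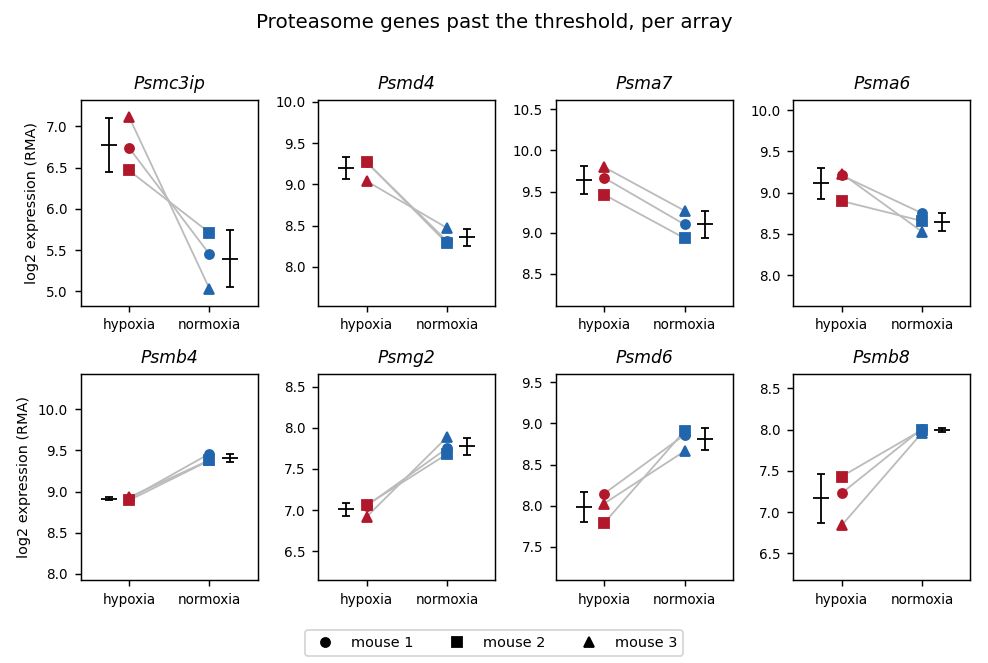
Log2 expression per array of the 8 genes past an adjusted p of 0.05, with hypoxia on the left and normoxia on the right; lines join the cultures of a mouse, and bars give the mean and SD of 3 arrays. In each of the 8 genes the arrays of the conditions do not overlap, with *Psmc3ip*, *Psmd4*, *Psma7* and *Psma6* higher and *Psmb4*, *Psmg2*, *Psmd6* and *Psmb8* lower in hypoxia.

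The activators dock onto the core in place of the cap, and PSMF1 inhibits the core. None of these 5 genes passed in limma, beside 15.5% higher and 23.9% lower over all rows, and none had an unadjusted p under 0.05. *Psme1* and *Psme2* encode the subunits of the interferon-induced activator ring. *Psme1* had 9.94, 9.49 and 9.84 in hypoxia, against 9.63, 9.80 and 9.85 in normoxia, with a log2 fold change of -0.0057 (95% interval -0.39 to 0.38). *Psme2* had 5.648, 7.001 and 6.703 in hypoxia, against 6.561, 6.394 and 6.236 in normoxia. Here the hypoxic array of mouse 1 lay far below the other 5 arrays, and the 95% interval of the log2 fold change of 0.054 was -0.73 to 0.84, the widest of the proteasome genes proper. The row of *Psme2* was dim, and the near-identical *Psme2b* could share its probes, so that this gene is uncertain.

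*Psme3* encodes the nuclear activator and had 9.60, 9.41 and 9.32 in hypoxia, against 9.22, 9.46 and 9.49 in normoxia, with overlap and a log2 fold change of 0.055. *Psme4*, whose product is a large single-chain activator, had 9.42, 9.34 and 9.33 in hypoxia, against 9.59, 9.52 and 9.64 in normoxia. All hypoxic arrays were below all normoxic arrays, with a log2 fold change of -0.22 (95% interval -0.51 to 0.063, limma adjusted p = 0.183). The inhibitor gene *Psmf1* had 9.06, 9.11 and 8.97 in hypoxia, against 8.99, 9.12 and 9.36 in normoxia, and a log2 fold change of -0.11 (95% interval -0.45 to 0.23).

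*Psmc3ip*, which is no proteasome subunit, had 6.74, 6.47 and 7.12 in hypoxia, against 5.45, 5.71 and 5.03 in normoxia. It was 1.38 higher on the log2 scale (SE 0.23, limma adjusted p = 0.00441), the largest change of the 43. Its mean was at percentile 0.997 of all rows, among the dimmest on these arrays.

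Genes with other symbols whose products work with the proteasome were read from a list of 13. Of the 12 with a row, 2 were higher, 2 lower and 8 did not pass, beside 15.5% higher and 23.9% lower over all rows, with a median log2 fold change of 0.30. *Akirin2*, whose product carries proteasomes into the nucleus, had 8.84, 8.58 and 8.56 in hypoxia, against 9.61, 9.34 and 9.74 in normoxia. It fell by 0.90 without overlap (SE 0.16, limma adjusted p = 0.00516). *Ecpas*, which encodes an adaptor that holds core and cap together, had 8.58, 8.50 and 8.23 in hypoxia, against 9.19, 9.13 and 9.02 in normoxia, and fell by 0.68 (SE 0.15, adjusted p = 0.0105). *Uchl5*, a deubiquitinase of the cap, was 0.49 higher (SE 0.13, adjusted p = 0.0201). *Pomp*, the chaperone that matures the beta rings, had 9.75, 9.56 and 9.74 in hypoxia, against 9.28, 9.31 and 9.10 in normoxia. Its log2 fold change of 0.45 passed without the block (adjusted p = 0.0332) and not with it (0.0756), which left 1 of the 12 higher and 2 lower. With single arrays or mice left out, the call was lost once for *Akirin2* (adjusted p = 0.0574 without mouse 3), in 2 of 9 for *Ecpas*, in 7 of 9 for *Uchl5* and in 8 of 9 for *Pomp*. The cap subunit genes outside the Psm symbols had positive values that did not pass, 0.37 for the ubiquitin receptor *Adrm1* (adjusted p = 0.0883) and 0.34 for *Sem1* (adjusted p = 0.0858).

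The transcription factor NRF1, the product of *Nfe2l1*, drives proteasome genes when the proteasome is impaired. It is made in the membrane of the endoplasmic reticulum, drawn out by VCP, stripped of its sugars by NGLY1 and cut by the protease DDI2 before it enters the nucleus with a small MAF partner. All 9 genes of this list had a row, of which 1 was higher, 4 were lower and 4 did not pass (15.5% and 23.9% of all rows were higher and lower). The median log2 fold change of the 9 was -0.19. *Nfe2l1* itself had 8.78, 8.79 and 8.43 in hypoxia, against 9.73, 9.79 and 9.51 in normoxia. The groups were far apart in all 3 mice, and it fell by 1.01 on the log2 scale (SE 0.16, limma adjusted p = 0.00335), with a normoxic level 2.01 times the hypoxic one. This call held in all 21 alternative fits.

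*Ddi2* had 9.32, 8.67 and 8.43 in hypoxia, against 9.57, 9.67 and 9.75 in normoxia. The culture of mouse 1 fell much less than the others, and the log2 fold change was -0.85 (SE 0.23, limma adjusted p = 0.0252). *Vcp* had 10.14, 9.85 and 9.65 in hypoxia, against 10.40, 10.48 and 10.44 in normoxia. It was lower by 0.56 (adjusted p = 0.0282), with an adjusted p of 0.0567 under the block. *Syvn1*, a ubiquitin ligase of the same membrane, fell by 0.68 (SE 0.17, adjusted p = 0.0171), and the small MAF gene *Maff* was 0.65 higher (SE 0.16, adjusted p = 0.0194). *Ngly1* had a log2 fold change of 0.078. Leaving out an array or a mouse ended the call of *Ddi2* in 7 of 9 fits (adjusted p up to 0.163), of *Vcp* in 7 (up to 0.182), of *Maff* in 6 (up to 0.131) and of *Syvn1* in 5 (up to 0.127). These genes and the proteasome genes were read on the same 6 arrays, and no relation between *Nfe2l1* and the subunits was tested.

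**Figure D5:**
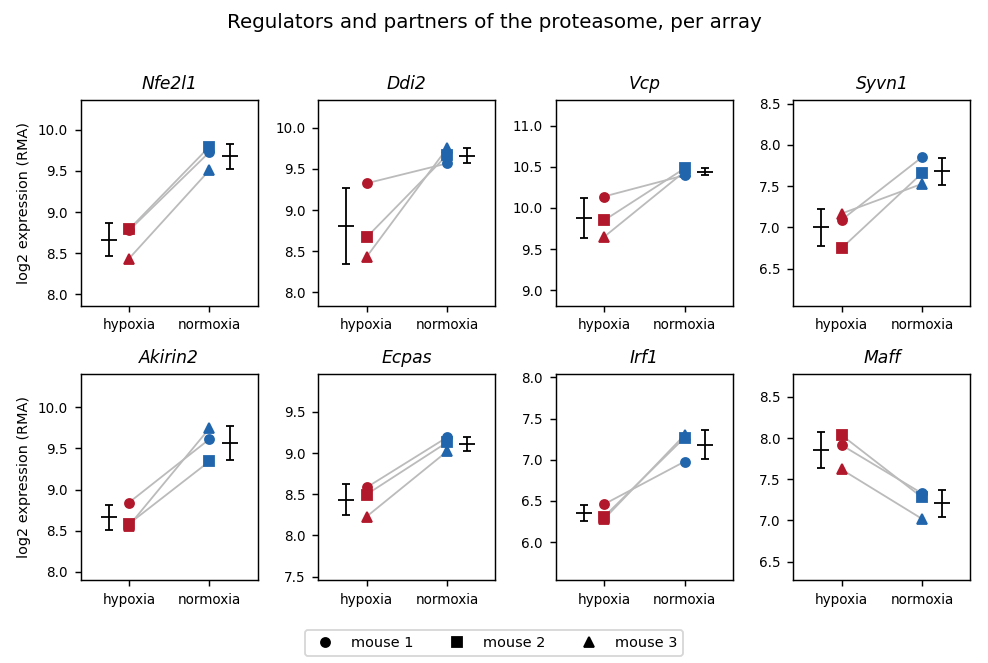
Log2 expression per array of 8 genes that control or accompany the proteasome, with hypoxia on the left and normoxia on the right; lines join the cultures of a mouse, and bars give the mean and SD of 3 arrays. *Maff* lies higher in hypoxia and the other 7, among them *Nfe2l1* and *Akirin2*, lie lower, without overlap.

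Upstream of the proteasome, *Uba6*, which encodes an enzyme that activates ubiquitin, was the only 1 of 6 listed ubiquitin and activating enzyme genes with a row. It had 8.54, 8.35 and 8.48 in hypoxia, against 8.98, 9.10 and 8.95 in normoxia, and fell by 0.55 (SE 0.13, limma adjusted p = 0.0139), a call lost in 3 of 9 leave-out fits. Of the VHL ligase, 4 of 5 listed genes had a row and none passed in limma, with 0 at an unadjusted p under 0.05. *Vhl* itself had 7.35, 7.37 and 7.16 in hypoxia, against 6.94, 7.04 and 7.02 in normoxia (log2 fold change 0.29, adjusted p = 0.11). Of the shuttle proteins and segregase cofactors, 8 of 10 had a row and none passed, with 0 at an unadjusted p under 0.05. Their log2 fold changes ran from -0.33 for *Ubqln4* to 0.25 for *Nsfl1c*. Over all rows, 15.5% were higher and 23.9% lower, beside none in the VHL ligase and shuttle lists.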

How the data were processed

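RNA of 6 arrays (3 mice, each under hypoxia and normoxia) was analysed from the log2 values that the authors deposited. The study's methods and the notes of the submitters name oligo and RMA for these (versions not given), and they were used unaltered. The genome build of the probes is not given in the sources used here, and arrays have no read depth, so that their number limits the precision. Every value column was assigned to a sample through its label.

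Gene names came from the platform annotation, with 1276 symbols updated through RefSeq names of GRCm38.p6 (13706 of 13725 matched). Of the 15443 rows, 13906 had 1 symbol, 415 several and 1122 none. A row with more than 1 symbol entered the fit but carries no name here. Promoter sequences came from RefSeq (GRCm38.p6).

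Hypoxia was compared with normoxia with lmFit and eBayes of limma 3.58.1 (R 4.3.3) and no block. The methods name limma with eBayes and do not mention a block. P-values were adjusted by Benjamini-Hochberg over the whole table, and an adjusted p under 0.05 counted as passed. Each array stands for 1 culture of a mouse. The labels name mouse 1, 2 or 3 for each array, once per condition, so the arrays are paired by animal, and the correlations between the deviations of a mouse in its 2 conditions were -0.11, 0.018 and 0.1. A second fit had the mouse as a block. Exchange pairs were tested with an exact two-sided permutation test, which cannot go below 0.1. The scripts were tested on simulated data.

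The proteasome genes, the lists and the tests were chosen with earlier results of these data known. All proteasome genes could be named. Values per array are given for the immunoproteasome subunits and the subunits they replace, the activators and the inhibitor, up to 3 genes per direction with the smallest adjusted p in each other group, and *Ndrg1*. Outside this rule, values per array are also given for *Psmc6* and *Psmd14*. From each list up to 4 genes with the smallest adjusted p were named, some by their fold change alone. Other genes named (*Tap1*, *B2m*, *Adrm1*, *Sem1*, *Vcp*, *Ngly1*, *Alb*, *Clec4f*, *Kdr*) were chosen after their values were seen. Alternatives were the block, eBayes options, row filters, scaling, thresholds and leave-outs of single arrays and single mice.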

Additional observations from a re-analysis of the deposited data

How the results depend on the processing

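The counts of 4 higher and 4 lower proteasome genes were 3 and 5 with the mouse as a block. At a threshold of 0.01, 2 were higher, as with a fold of at least 1.5 asked for. Leaving out an array or a mouse gave 1 to 4 higher and 2 to 5 lower, with 1 higher and 2 lower without mouse 2, 2 of each without mouse 3, and 2 higher without the hypoxic array of mouse 3 or the normoxic array of mouse 1 or 2. Other settings gave 3 to 6 in either direction. eBayes with trend gave 6 and 6, adding *Psmb1*, *Psmd8*, *Psma1* and *Psmd10*. Repeated quantile normalization took the log2 fold change of *Psmd8* from 0.23 to 0.037 (limma adjusted p = 0.825). Centring on the brighter rows gave 6 higher, adding *Psmb1* and *Psmc5*. Of 900 fits of single proteasome genes under alternatives, 812 kept direction and call, 29 lost the call and 17 gained one. Another 42 changed sign, in 14 genes that had not passed. Only scaling and leave-outs could change a sign, since the other settings left the log2 fold change of each gene unaltered. The threshold settings were the main fit read at another cut-off. These tallies therefore do not measure how stable the directions are. Centring on the brighter rows turned *Psmb2* to 0.0077, *Psmb6* to 0.037, *Psmd7* to 0.019 and *Psme1* to 0.055, and repeated quantile normalization turned *Psmb7* to -0.038. Without an array or a mouse, ranges that crossed zero were -0.089 to 0.14 for *Psma2*, -0.20 to 0.066 for *Psmb2*, -0.11 to 0.068 for *Psmb6*, -0.13 to 0.16 for *Psmb7*, -0.019 to 0.066 for *Psmb10*, -0.075 to 0.019 for *Psmd7*, -0.0077 to 0.22 for *Psmd13*, -0.032 to 0.20 for *Psmd14*, -0.17 to 0.022 for *Psmd5*, -0.24 to 0.088 for *Psmg1*, -0.16 to 0.15 for *Psme1*, -0.22 to 0.54 for *Psme2*, -0.11 to 0.17 for *Psme3* and -0.20 to 0.027 for *Psmf1*. The change of *Psmb8* minus *Psmb5* stayed between -1.18 and -0.81 in these fits, and that of *Psmb10* minus *Psmb7* ran from -0.16 to 0.19. Without the dimmest 25% of rows, *Psmb9*, *Psme2* and *Psmc3ip* had no value. The cause of these differences was not tested. The same alternatives were run for 38 genes outside the proteasome after their values were seen. Of these, *Pomp*, *Vcp*, *Ifit1*, *Erap1* and *Marco* lost their call with the mouse as a block. Of the 38, 2 changed sign, with leave-out ranges of -0.0091 to 0.16 for *Ngly1* and -0.0040 to 0.39 for *Nsfl1c*. With 3 arrays per condition, the smallest exact p is 0.1, and dim rows such as *Psme2* have wide intervals.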
